A study of Drosophila melanogaster with 5 samples.

Results

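The transcripts described here are those whose array values were clearly lower in dDP mutant larvae of Drosophila melanogaster than in wild-type larvae. A transcript was kept when the lower of its 2 wild-type values exceeded the highest of its 3 mutant values by at least 1 on the log2 scale, a gap called the margin below. Of the 16637 transcripts on the arrays, 102 met this rule, which is 0.613%. The mutant larvae were transheterozygous for the alleles dDPa3 and dDPa4, with 3 arrays numbered 1, 2 and 3. The wild-type larvae were w1118, with 2 arrays numbered 1 and 3. Both genotypes were larvae of the third instar raised on standard medium without further treatment, and each array was hybridised with Cy3-labelled cDNA made from total RNA. The labels do not say whether the mutant larvae share the w1118 background, how many larvae went into an RNA sample, or whether replicates were collected separately, so the spread between arrays may be technical. The sample titles speak of a knockdown where the genotype field gives the 2 alleles, and the genotype field was followed.

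DP proteins pair with E2F transcription factors, and the pair binds the promoters of genes for DNA replication, mitosis and cell differentiation. In Drosophila a single DP protein serves both the activating factor E2f1 and the repressing factor E2f2, so a DP mutant affects the partner of both. Whether any transcript described here is a direct target of E2F was not measured by these arrays.

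The files identify each transcript by a FlyBase transcript number and do not pair the numbers with genes. The RefSeq gene table used for names holds the numbers of 44 transcripts on the array, and 0 of these are among the 102. The members are therefore given by their rank in the order of margins, with rank 1 for the largest, and 2 of them by identifier. The level of dDP itself and the markers of larval tissues were not analysed here. RMA, which the submitters name as their processing, equalises the arrays, and the array medians lay between 11.64 and 11.69. All values lay between 4.98 and 15.7.

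Since the rule used every array of both genotypes, the differences between genotypes that follow describe the 102 transcripts and are not tests of them. In whole larvae a lower array value can come from fewer cells of a type or from less RNA per cell, and these cannot be told apart. The median member had a mean value of 8.29 in dDP mutant larvae and of 10.5 in wild-type larvae. The median difference was -1.96 on the log2 scale, or 3.88-fold lower in the mutant if the deposited values are log2. The middle of the distribution was narrow, with quartiles of the difference at -2.45 and -1.65. Of the 102, 47 were lower by at least 2, 8 by at least 3 and 1 by at least 4. On the whole array 78 transcripts had a mean lower by at least 2 in the mutant, and the 31 of them that were not members had a margin under 1.

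**Figure D1:**
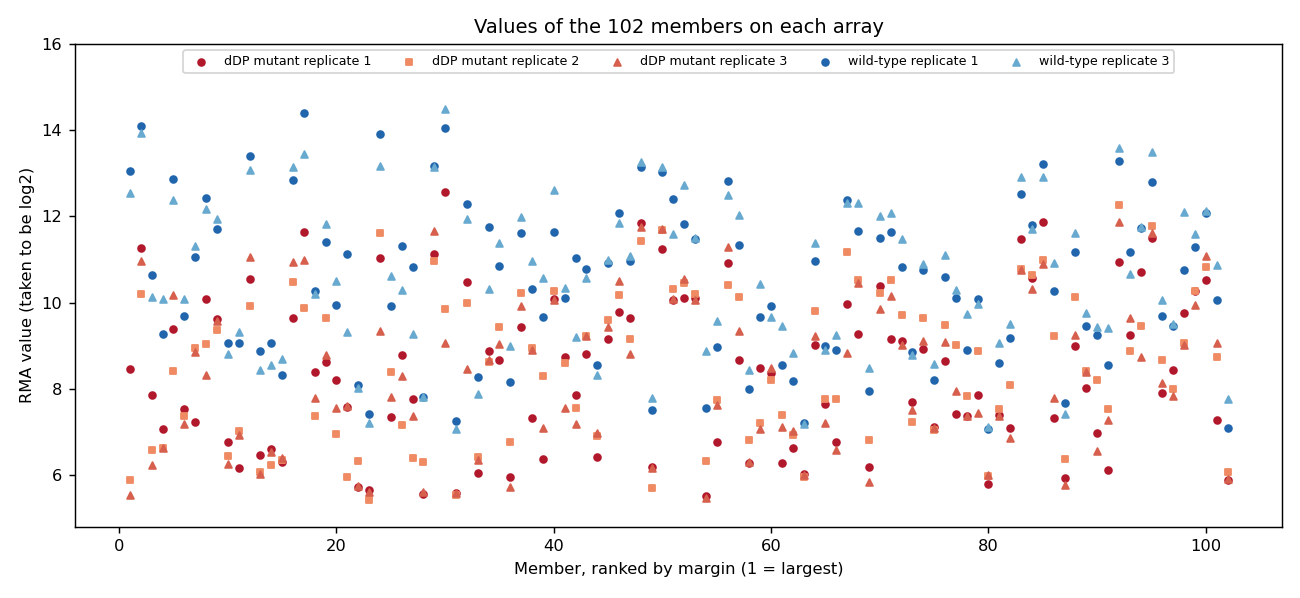
Value of each of the 102 members on each array (vertical axis, RMA value taken to be log2), ordered along the horizontal axis by margin with the largest at the left. Red and orange symbols are the 3 dDP mutant arrays and blue symbols the 2 wild-type arrays. Members with large and small margins were found at all heights of the scale.

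The member with the largest margin stood apart from the others. FBtr0087451 had values of 8.46, 5.88 and 5.54 on the mutant arrays 1, 2 and 3, against 13.06 and 12.53 on the wild-type arrays 1 and 3. Its margin was 4.07 and its mean difference -6.17. The 3 mutant values were not alike, since replicate 1 stood at percentile 18.2 of its array, while replicates 2 and 3 stood at percentiles 3.99 and 1.65 of theirs. Both wild-type values lay well above the array median, at percentiles 75.7 and 65.5. No other transcript on the array had a margin of 3 or more.

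The second member, FBtr0080564, was among the brightest transcripts of the wild type and was lowered to the middle of the range rather than to its bottom. Its values were 11.27, 10.21 and 10.96 on the mutant arrays, against 14.11 and 13.94 on the wild-type arrays. The wild-type values stood at percentiles 92.7 and 90.8 of their arrays and the mutant values between 31.5 and 44.4. Its mean was 10.8 ± 0.547 in the mutant (SD, n = 3) and 14.02 ± 0.117 in the wild type (SD, n = 2).

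The next members by margin divided into some that reached low signals and some that stayed at intermediate ones. Rank 3 had 7.86, 6.57 and 6.23 in the mutant and 10.63 and 10.12 in the wild type. Rank 4 had 7.07, 6.64 and 6.63 in the mutant and 9.27 and 10.08 in the wild type. Both ended low, at percentiles between 5.87 and 14.6 of the mutant arrays. Rank 5 had 9.38, 8.42 and 10.17 in the mutant and 12.86 and 12.37 in the wild type. Its mutant values spread over 1.75, against 0.493 between the wild-type arrays. Rank 6 had 7.54, 7.37 and 7.19 in the mutant and 9.68 and 10.07 in the wild type, with closely spaced values in each genotype.

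Rank 7 had 7.23, 8.94 and 8.86 in the mutant and 11.06 and 11.31 in the wild type, so that here mutant replicate 1 was the lowest by a wide step. Rank 8 had 10.09, 9.04 and 8.31 in the mutant and 12.44 and 12.17 in the wild type. Mutant replicate 1 was thus the highest of the mutant arrays in one of these members and the lowest in the other. Rank 9 had 9.62, 9.38 and 9.57 in the mutant and 11.70 and 11.93 in the wild type. Rank 10 had 6.76, 6.44 and 6.27 in the mutant and 9.06 and 8.81 in the wild type. For ranks 9 and 10 the spread within either genotype was under 0.5, a small part of the differences of -2.29 and -2.45 between them.

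Margins fell off quickly below these. There were 12 transcripts with a margin of at least 2 and 27 with at least 1.5, and the median margin of the 102 was 1.28. At the edge of the rule, the 3 members just inside had margins of 1.003, 1.002 and 1.001, and the 3 transcripts just outside had margins of 1.000 (just under 1), 0.994 and 0.992. Those inside differed by -1.29, -2.11 and -1.47 between genotype means and those outside by -2.17, -1.47 and -1.70. The boundary thus separates transcripts with similar mean differences, and membership at the edge rests on single arrays.

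Most members ended at low signals in the mutant, and most had not been among the bright transcripts of the wild type. Signals of different transcripts depend on their probes, so percentiles here rank signals on an array and not abundance. The median member stood at percentile 17.2 in the mutant and 35.1 in the wild type. On all 3 mutant arrays, 59 of the 102 lay in the lowest 25% of signals, as did 20.8% of all transcripts. On both wild-type arrays, 30 of the 102 already did, as did 23.3% of all transcripts. Between these, 21 members lay within the lowest 25% on every mutant array and above it on both wild-type arrays. For the lowest 10% of signals, 18 members lay within it on all mutant arrays and 0 on both wild-type arrays, where 7.92% and 9.02% of all transcripts did. The rule puts both wild-type values at least 1 above every mutant value, and no value lay below 4.98. It therefore leaves little room for members in the lowest 10% on the wild-type arrays. In the lowest 5% on all mutant arrays lay 4 members, or 3.92%, close to the 3.5% of all transcripts. Whether any of these low signals exceeded background was not tested, because the deposited values carry no detection call, so loss cannot be told from lowering at this end of the scale.

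At the other end, 26 members, or 25.5%, lay above the array median on both wild-type arrays, against 47.3% of all transcripts. On all mutant arrays 0 members did so, against 44.1% of all transcripts. Among those 26, 1 was in the lowest 25% on all mutant arrays, and that member was FBtr0087451. The top 25% of signals on both wild-type arrays held 8 of the 26, or 7.84% of the members, against 22.9% of all transcripts. The brightest of them, rank 30, had 12.57, 9.84 and 9.06 on the mutant arrays and 14.05 and 14.50 on the wild-type arrays. It also had the second largest mean difference of the set, -3.78, and its margin of 1.48 was held down by mutant replicate 1. The members that stayed brightest in the mutant were ranks 92, 48 and 95. Rank 92 had 10.94, 12.26 and 11.86 in the mutant and 13.28 and 13.60 in the wild type.

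The median difference was similar across classes of wild-type signal, while the largest differences lay outside the dimmest class. The members were divided by the mean percentile of their wild-type values into 4 classes. The dimmest class, up to percentile 25, held 33 members with a median difference of -1.81, and the class from 25 to 50 held 37 with -2.11. The class from 50 to 75 held 21 with -1.95, and the brightest held 11 with -1.91. As shares of all transcripts in each class these are 0.802%, 0.883%, 0.502% and 0.265%. From the dimmest class to the brightest, the differences ranged from -2.49 to -1.16, from -3.49 to -1.27, from -6.17 to -1.24 and from -3.78 to -1.52. The margin fixes the small end of each range. The lowest value on any array, 4.98, limits the large end in the dimmest class, where the median wild-type mean was 8.51. A difference as large as that of FBtr0087451 could not occur there, so the large ends do not compare the classes.

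**Figure D2:**
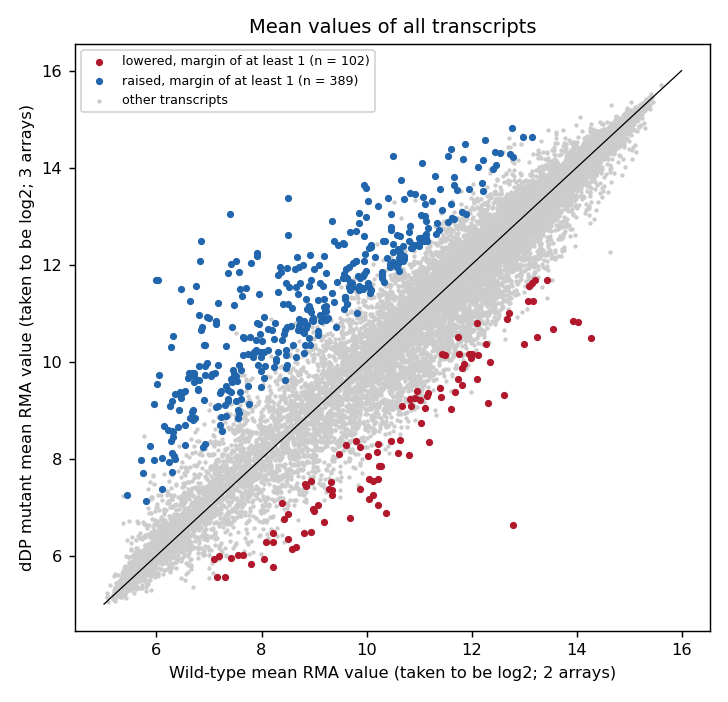
Mean RMA value of each of the 16637 transcripts in dDP mutant larvae (vertical axis, 3 arrays) against wild-type larvae (horizontal axis, 2 arrays), both taken to be log2, with the line of equal values. The 102 lowered members (red) run along the lower edge of the cloud of other transcripts, with FBtr0087451 alone far below it, and the 389 transcripts that meet the same rule in the raised direction (blue) are shown for comparison.

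The same rule turned round kept 389 transcripts in which every mutant array exceeded both wild-type arrays by at least 1, or 2.34% of the array. Without a margin, the mutant arrays all lay below both wild-type arrays for 18.1% of transcripts and all above for 21.6%. The raised transcripts had a median difference of 2.14, close in size to the -1.96 of the lowered ones. The rule itself makes lowered members the brighter ones in the wild type, so the sets are set side by side by the genotype in which each was high or low. Where each set was high, the median percentile was 35.1 for the lowered members (wild type) and 45.2 for the raised transcripts (mutant), and 25.5% and 31.1% of them lay above the median on every array of that genotype. Where each was low, the median percentile was 17.2 for the lowered members (mutant) and 20.4 for the raised transcripts (wild type), and 57.8% and 58.1% lay in the lowest 25% on every array. Both sets were chosen on the same 5 arrays, so these values describe the sets and no test of the contrast between them was made.

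The mutant arrays did not lower the members equally. Relative to the wild-type mean, the median over members was -2.15 on mutant replicate 1, -1.68 on replicate 2 and -2.06 on replicate 3. Over all transcripts the same medians were 0.07, -0.02 and 0.01. Replicate 2 was the highest mutant array for 50 of the 102 members, replicate 1 for 34 and replicate 3 for 18. Over all transcripts replicate 2 was the highest in 23.4%, replicate 1 in 38.8% and replicate 3 in 37.8%. The commonest order from high to low was replicate 2, then 3, then 1, in 33 members or 32.4%, against 12.5% of all transcripts. The order replicate 3, then 1, then 2 was the rarest, in 8 members. Because the highest mutant value enters the rule, these counts describe the set and the part of single arrays in it was not tested.

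**Figure D3:**
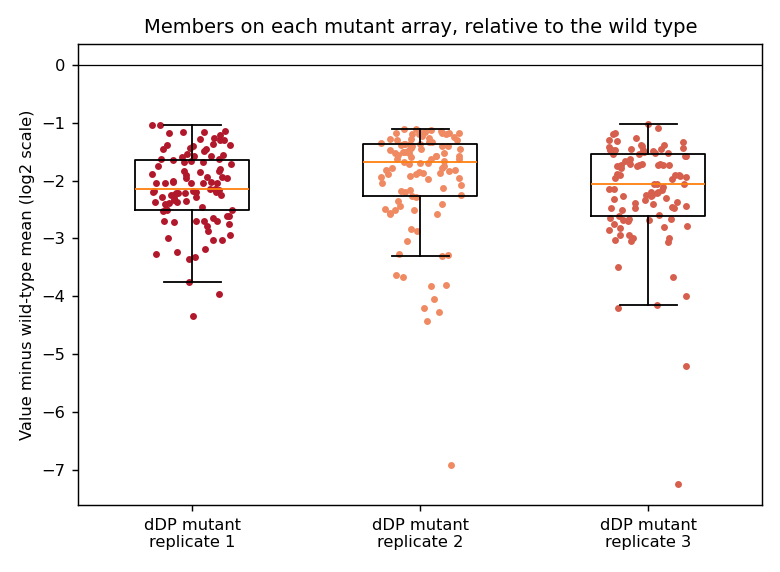
Value of each of the 102 members on a dDP mutant array minus its wild-type mean (vertical axis, log2 scale), for mutant replicates 1, 2 and 3. Boxes give the median and quartiles, whiskers reach the last point within 1.5 box lengths and points are members; the medians are -2.15, -1.68 and -2.06, and the 2 lowest points, on replicates 2 and 3, belong to FBtr0087451.

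Within the mutant genotype the members ranged from near-identical to widely scattered values. The median range over the 3 mutant arrays was 0.77 for the members and 0.565 for all transcripts. It was under 0.5 in 33 members, at least 1 in 40 and at least 2 in 5. The steadiest member, rank 63, had 6.03, 5.97 and 6.01 in the mutant, against 7.20 and 7.18 in the wild type. Rank 31 had 5.59, 5.53 and 5.59 in the mutant, against 7.25 and 7.07 in the wild type. Both are dim transcripts, with mutant values close to the lowest on the arrays. The widest spread was in rank 30, given above, with an SD of 1.84, followed by FBtr0087451 with 1.6. Rank 24 came next, with 11.04, 11.62 and 9.35 in the mutant and 13.92 and 13.18 in the wild type. These members were picked out after their values were seen.

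The wild-type arrays also differed for the members. Wild-type replicate 1 was the lower of the 2 in 63 members, or 61.8%, against 47.5% of all transcripts. The median gap between the wild-type arrays was 0.383 for members and 0.195 for all transcripts, and it reached 1 in 7 members. The largest gap was in rank 21, with 7.58, 5.96 and 7.61 in the mutant and 11.13 and 9.32 in the wild type. There replicate 1 was the higher of the wild-type arrays. Ranks 42 and 27 had gaps of 1.81 and 1.57 in the same direction. In 39 of the 102 members the margin was set by mutant replicate 2 against wild-type replicate 1, which is 38.2%, where the same pair was closest in this sense for 16.3% of all transcripts.

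How far 1 array followed the other 4 was read by applying the rule to 4 arrays and then looking at the array left out. This is the only reading of the difference on an array that the choice did not use, although the arrays of the other genotype were shared by the choice and the reading. Without mutant replicate 1 the rule kept 158 transcripts, and replicate 1 lay below both wild-type arrays in 148 of them, or 93.7%, against 33.9% of all transcripts. Without mutant replicate 3 it kept 132, and replicate 3 lay below both in 131, or 99.2%, against 41.8% of all transcripts. Without mutant replicate 2 it kept 511, and replicate 2 lay below both in 496, or 97.1%, against 40.8%. The transcripts kept were chosen for high values on the same wild-type arrays, so the share over all transcripts is not the share that no difference would give, and these counts are descriptions.

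The size was not carried over equally. The median difference on the array left out was -1.60 for mutant replicate 1 and -1.73 for replicate 3, against -1.76 and -1.84 for the same transcripts on the 4 arrays that chose them. For mutant replicate 2 it was -0.85, against -1.88 on the other 4. On it 20% of the 511 kept a margin of 1, as did 1.7% of all transcripts. By the rule these are the 102 members, whichever array is left out, so this share describes the set. The wild-type arrays gave the same reading from the other side. Without wild-type replicate 3 the rule kept 144 transcripts, and replicate 3 lay above every mutant array in 135 of them, or 93.8%, against 26% of all transcripts. Without wild-type replicate 1 it kept 776, with replicate 1 above every mutant array in 748, or 96.4%, against 26.5%, but with a median difference of -1.04, against -1.77 on the other 4. The rule thus kept the most transcripts, 511 and 776, when mutant replicate 2 or wild-type replicate 1 was left out, and the reason was not tested.

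The fit across all transcripts used the same contrast as the rule. Limma with genotype as the only term, adjusted by the Benjamini-Hochberg method over all 16637 transcripts at a threshold of 0.05, called 35 transcripts lower in the mutant, or 0.21% of the array, and 236 higher, or 1.42%. All 35 called lower were members, as a description. All 102 members had an unadjusted limma p below 0.05, as did 8.06% of all transcripts in this direction. The 35 had a median difference of -1.80, and the other 67 members one of -1.99. The median residual SD, the pooled spread of arrays within a genotype, was 0.227 in the 35 and 0.557 in the 67; since the call divides the difference by this spread, the contrast follows from it. Their signals differed as well, with a median wild-type percentile of 22.9 in the 35 and 38.8 in the 67. By class of wild-type signal from dim to bright, 18 of 33, 9 of 37, 3 of 21 and 5 of 11 members passed. On the whole array these classes held 4115, 4190, 4185 and 4147 transcripts, and no transcript outside the members was called lower. The members were chosen on the same contrast, so the counts by class are descriptions. FBtr0087451, with the largest difference of all, did not pass (limma adjusted p = 0.0508), and FBtr0080564 did (limma adjusted p = 0.0276). Of the 10 members with the largest margins, 5 passed. Without mutant replicate 1 limma called 14 members among 16 transcripts lower, and without mutant replicate 2 or 3 it called 0. In these fits all 102 members had an unadjusted limma p below 0.05. So did 1382, 1326 and 987 of the 16637 transcripts in this direction, without mutant replicates 1, 2 and 3. In the fits with a lone wild-type array not every member did. The median difference of the members was -2.135 without wild-type replicate 1 and -1.835 without wild-type replicate 3. With the replicate number as a block, limma called 70 members among 527 transcripts lower in the mutant, or 3.17% of the array, on 1 residual degree of freedom. Replicate number 2 occurs only in the mutant, so the block takes that array out of the contrast. The difference of FBtr0087451 was accordingly -5.795 with the block and -5.795 without mutant replicate 2.

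**Figure D4:**
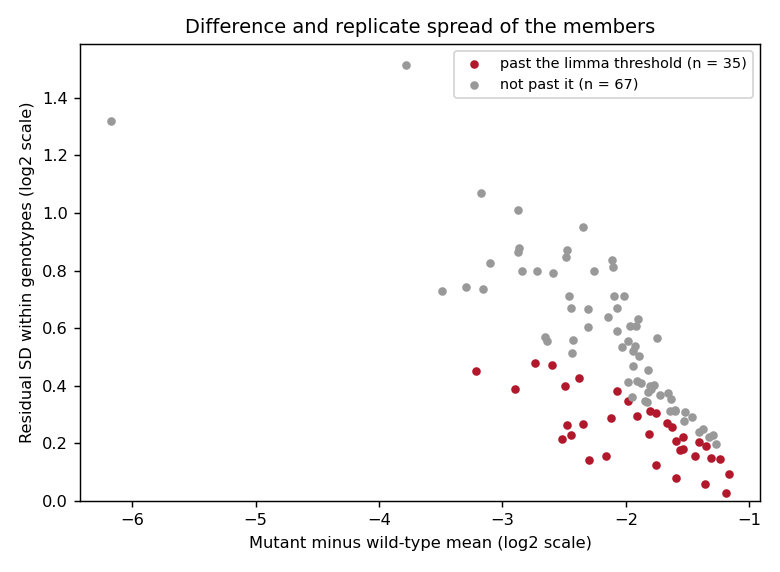
Residual SD within genotypes (vertical axis, log2 scale) against the mutant minus wild-type difference (horizontal axis, log2 scale) for the 102 members. Red points are the 35 members past the limma threshold of 0.05 and grey points the 67 that were not; red points lie below grey ones at the same difference.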

How the data were processed

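Each array gave 1 deposited value per FlyBase transcript. The submitters' processing notes name RMA and the package oligo, with no version. The authors' deposited values were read as log2, the scale RMA writes. The sources used here do not give the base, the genome build, the annotation release or a detection filter. Arrays have no depth, and their number limits the precision. Members were found on the deposited values by the margin alone. The members and lists were chosen with earlier results of these data known. Names were sought among the synonyms of the RefSeq gene table (Release 6 plus ISO1 MT). Of 312 genes in 18 lists (E2F and DP, cell cycle, repair, tissues, metabolism), 4 were on named transcripts and 0 on members, so no list could be evaluated. Limma 3.58.1 in R 4.3.3 was run with lmFit and eBayes on all 5 arrays and all transcripts, with 3 residual degrees of freedom plus 2.32 from moderation, and was tested on simulated data. The rule for named transcripts took the 10 largest margins and the 3 transcripts on either side of the boundary. Other members singled out, and the reading of an array left out of the rule, were chosen with values in view. Alternatives were median centring, cyclic loess, trend and robust moderation, removal of the dimmest 25%, the replicate block, other margins and each array left out. No sequences were used here. Figures were drawn with matplotlib 3.10.9.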

Additional observations from a re-analysis of the deposited data

How the results depend on the processing

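The 102 members became 103 with median centring and 94 with cyclic loess, of which 101 and 88 were among the 102. Margins of at least 0.5, 1.5 and 2 gave 547, 27 and 12, and removal of the dimmest 25% left 46. Leaving out an array gave 132 to 776. The median difference of the members, -1.96, kept its sign and moved by less than the replicate spread in every refit made of it. The rule sets every mutant value of a member at least 1 below every wild-type value. Leaving out an array could therefore not turn the sign. Limma called 35 transcripts lower, all members, and 236 higher. Removing the dimmest 25% gave 14 lower calls, again all members. With the replicate block, which takes mutant replicate 2 out of the contrast, 527 transcripts were lower, 70 of them members. Leaving out an array gave 0 to 16 lower calls (0 to 14 members) and 0 to 102 higher. It was 0 in both directions without mutant replicate 2 or 3 or wild-type replicate 1 or 3, with 1326, 987, 1035 and 333 lower at an unadjusted p below 0.05. A lone wild-type array is assumed to vary like the mutant arrays. The 10 members with the largest margins kept their sign in 94 refits, in which 21 lost and 17 gained a call. The sign of these 10 members was fixed by the rule wherever an array was left out, so it is a description. The labels give the shared replicate numbers no meaning across genotypes. Deviations from the genotype means correlated at r = 0.52 and 0.21 for same-numbered arrays, and at 0.4 for mutant replicate 2 with wild-type replicate 3. The deviations of the 2 wild-type arrays mirror each other, so each mutant array goes with 1 of them by construction. These values cannot decide on the block, which is given as an alternative fit. The cause of these changes between fits was not tested. Without background signals, nothing can be said of how far the dimmest values lie above the floor of the arrays.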
